A study of Mus musculus with 8 samples.

Results

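miR-192, miR-194 and miR-215 are microRNAs (miRNAs, short RNAs that pair with messenger RNAs and lower their output) that are known for high levels in kidney, liver and intestine. They were taken as the 3 miRNAs whose array name was mmu-miR-192, mmu-miR-194 or mmu-miR-215, out of 611 mouse miRNAs on the array, with both probes of each. The UUO group held 4 kidneys of ICR mice, an outbred strain, 7 days after ligation of their ureter (unilateral ureteral obstruction, UUO). The control group held 4 contralateral kidneys of ICR mice, whose own ureter was open. The control kidneys are therefore not kidneys of unoperated mice, since the labels describe a ligated ureter for every animal, and the age and sex of the mice are not given in the labels. Whole kidneys were measured, each on its own array, so that fewer tubule cells and less miRNA per tubule cell cannot be told apart.

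In mammals these miRNAs are made from paired genes. One gene pair gives miR-192 with miR-194 and the other gives miR-215 with miR-194. The pair of miR-192 and miR-194 is known as a target of HNF1 transcription factors, which maintain epithelial genes of kidney tubule, gut and liver, and all 3 miRNAs are known as p53-responsive in human cells. miR-192 is also known to repress the zinc finger repressor Zeb2 in mouse mesangial cells, where it was described downstream of TGF-beta.

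The mature sequences show which members could act alike and which probes could take up each other's target. They are those of the 5′ arms in RefSeq (GRCm38.p6), to which all 3 array names were matched. The array names give no arm and no probe sequences were available, so this match could not be checked. The capitals mark the seed, bases 2 to 8, which pairs with messenger RNA.
miR-192: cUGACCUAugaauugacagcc
miR-215: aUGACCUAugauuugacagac
miR-194: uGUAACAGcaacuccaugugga
miR-192 and miR-215 had the same seed and were identical at 18 of 21 bases. Counted from 1 at the 5′ end of miR-192, with the base of miR-192 first, the differences were C1A, A12U and C20A. No other mature mouse miRNA name among 1679 in the table carried the seed of that pair, and miR-194 was the 1 name with its own seed.

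The precursor hairpins show why the array cannot say which gene a miR-194 signal came from. Capitals mark the mature miRNA, and the genes lie on the plus strand.
Mir194-2, chr19:6264643-6264728: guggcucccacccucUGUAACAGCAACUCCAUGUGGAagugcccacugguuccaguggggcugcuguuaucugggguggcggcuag
Mir192, chr19:6264844-6264932: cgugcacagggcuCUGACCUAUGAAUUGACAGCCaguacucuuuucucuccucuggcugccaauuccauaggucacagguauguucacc
Mir194-1, chr1:185313319-185313385: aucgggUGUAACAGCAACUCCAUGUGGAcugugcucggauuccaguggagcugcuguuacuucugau
Mir215, chr1:185313581-185313692: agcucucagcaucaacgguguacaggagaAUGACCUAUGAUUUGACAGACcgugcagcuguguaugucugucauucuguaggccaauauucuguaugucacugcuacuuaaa
Mir194-2 and Mir192 lie 115 bases apart on chromosome 19, next to the gene Atg2a. Mir194-1 and Mir215 lie 195 bases apart on chromosome 1, inside the span of the gene Iars2. Both miR-194 genes give the same mature sequence, while miR-192 comes only from the chromosome 19 pair and miR-215 only from the chromosome 1 pair. No probe carried a minor-strand name of any of these miRNAs.

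miR-192 and miR-194 were measured well above background on all 8 arrays, and miR-215 on none. When each array was scaled to its bright probes, miR-192 fell 2.41-fold and miR-194 fell 2.48-fold in UUO kidneys, and for both the 4 UUO kidneys lay below all 4 control kidneys, as they did for 21.2% of the 222 miRNAs tested. The within-array difference between miR-192 and miR-194 did not pass a test between the groups. miR-215 gave no level in either group.

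Before those results, the state of the arrays bears on how they are read. All 8 arrays shared 1 slide and 1 scan, with kidneys 1 and 2 of both groups in slide row 1 and kidneys 3 and 4 in slide row 2, per the file headers. The brightness of an array was summarised as the 75th percentile signal of the 371 probes above background on every array. It ranged from 514 to 1595 on UUO arrays and from 417 to 582 on control arrays, a group difference of 0.88 on the log2 scale (exact permutation p = 0.0857, two-sided, over 70 assignments). Between 243 and 310 miRNAs were above background on UUO arrays and between 228 and 240 on control arrays. UUO kidney 2 stood apart from its group. Across the 222 tested miRNAs its mean correlation was 0.887 with the other UUO arrays and 0.964 with the control arrays, while for UUO arrays 1, 3 and 4 the mean correlation with the rest of their group was 0.937 to 0.943.

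Each signal was divided by the 75th percentile of its array, which gives a scaled signal. For miR-192 the scaled signal was 4.72, 7.20, 5.27 and 3.19 in UUO kidneys 1 to 4, and 13.4, 9.09, 11.9 and 13.4 in control kidneys 1 to 4. UUO kidney 2 was the highest of its group and control kidney 2 the lowest of its own, and the groups did not overlap. On the log2 scale the level was 2.29 ± 0.48 in UUO and 3.56 ± 0.26 in control kidneys (SD, n = 4 each). The log2 change was -1.27 ± 0.26 (SE), with a 95% interval of -1.87 to -0.67 (limma, Benjamini-Hochberg adjusted p = 0.0213 over 222 miRNAs).

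For miR-194 the scaled signal was 1.06, 1.29, 1.34 and 0.948 in UUO kidneys 1 to 4, and 3.06, 2.28, 2.72 and 3.47 in control kidneys 1 to 4. The UUO kidneys lay close together, kidney 2 included, and control kidney 2 was again the lowest control. The log2 level was 0.20 ± 0.24 in UUO and 1.51 ± 0.26 in control kidneys (SD, n = 4 each). The log2 change was -1.31 ± 0.18 (SE), with a 95% interval of -1.74 to -0.89 (limma adjusted p = 0.0172).

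A call here means an adjusted p under 0.05 in the fit of all tested miRNAs. Of those, 13.5% were called lower in UUO kidneys and 1.35% higher, and both measured members were among those called lower. By size of fall they ranked 6 (miR-194) and 8 (miR-192) of 222, and by p-value miR-194 ranked 1 and miR-192 ranked 12. The median over the 222 log2 changes was -0.14.

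Both calls ended when 1 of several arrays was left out, at nearly the same size of change. Without UUO kidney 1 or 3 or control kidney 1, 3 or 4, the limma adjusted p was 0.0520 to 0.0841 and the log2 changes of miR-192 and miR-194 were between -1.39 and -1.21. In each of these 5 limma fits 0 miRNAs were called (54 to 67 at an unadjusted p under 0.05), against 33 with all 8 arrays. Without UUO kidney 4, the log2 change of miR-192 was -1.07 and both calls remained.

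**Figure D1:**
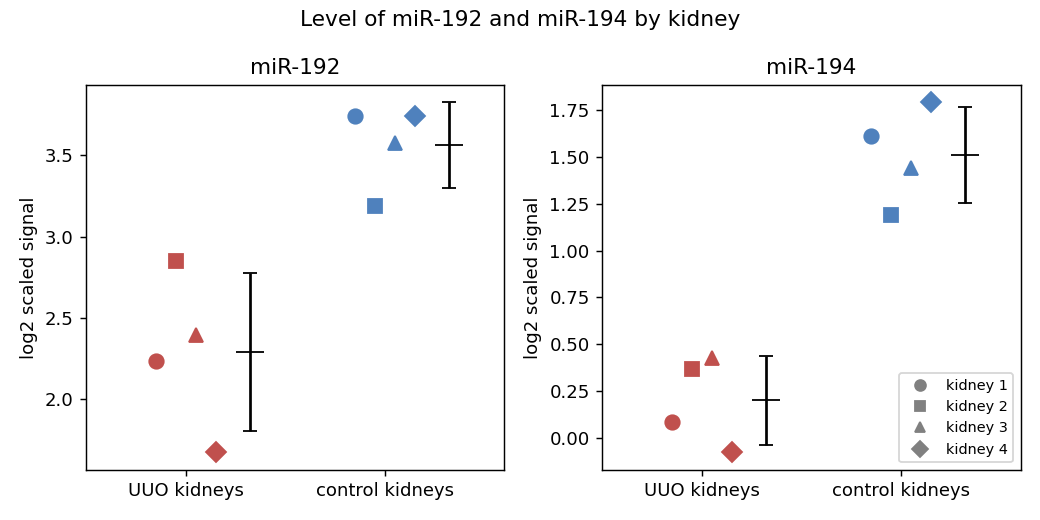
Log2 scaled signal of miR-192 (left) and miR-194 (right) in 4 UUO and 4 control kidneys, 1 symbol per kidney, with the group mean and SD as a bar beside the points. The 4 UUO kidneys lie below the 4 control kidneys in both panels, with UUO kidney 2 highest of its group for miR-192 and control kidney 2 lowest of its own in both.

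The fall is a fall relative to other miRNAs on the array. Before scaling, the summed signal of miR-192 was 3250.3, 3704, 7387 and 5092 in UUO kidneys 1 to 4, and 6873, 3796, 6581 and 7791 in control kidneys 1 to 4. These ranges overlapped. Unscaled miR-194 was 731, 663, 1883 and 1511 in UUO kidneys, and 1572, 954, 1503 and 2018 in control kidneys, which overlapped too. The group differences were -0.39 for miR-192 and -0.43 for miR-194 on the log2 scale, and each gave p = 0.286 in an exact two-sided permutation test (n = 4 each). Without scaling, the median over the 222 log2 changes was 0.74, and both members lay below it. Scaling divides each array by a constant, so their distance from that median is by construction the same with scaling.

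The probes of each miRNA gave closely similar changes. For miR-192 the log2 change of the scaled signal was -1.27 for probe A_54_P2460 and -1.27 for probe A_54_P2461. For miR-194 it was -1.30 for probe A_54_P1151 and -1.35 for probe A_54_P1152. Each of these 4 probes alone separated the groups, with every UUO array below every control array. Probes of a miRNA share the same RNA and are not replicates. Each probe was printed as 10 spots per array, and the coefficient of variation over the spots kept was 2.48% to 17.9%, highest on the dim miR-194 probe A_54_P1152. Outlier marks removed 7 of 160 spots for each of miR-192, miR-194 and miR-215 over the 8 arrays, and no spot was saturated.

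miR-215, which shares its seed with miR-192, was not well above background on any of 8 arrays, with 0 of 153 spots carrying the mark. Its summed signal was -0.73, -2.23, 0.44 and -0.69 in UUO kidneys 1 to 4, and -1.29, 0.70, -1.49 and -1.21 in control kidneys 1 to 4. The lowest probe mean that counted as above background was 9.59 to 11.3 on UUO arrays and 9.92 to 11.8 on control arrays. The miR-215 probes thus stayed near 0 on arrays where miR-192, with 18 of 21 bases in common, was measured on all its spots. No fold change is given for miR-215, because neither group had a level, and differences between it and the other members were not computed.

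**Figure D2:**
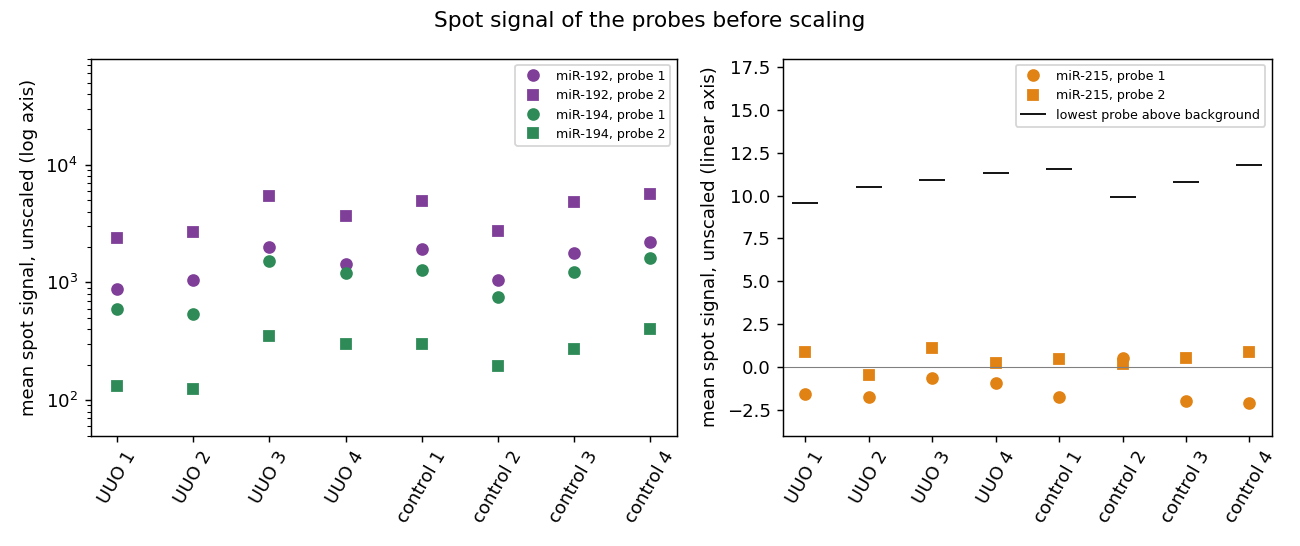
Mean spot signal before scaling in 4 UUO and 4 control kidneys, for the probes of miR-192 and miR-194 on a log axis (left) and of miR-215 on a linear axis (right), where dashes mark the lowest probe mean above background. The miR-215 probes lie between -2.07 and 1.10 on all 8 arrays, below every dash, while unscaled miR-192 and miR-194 overlap between the groups.

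A difference taken within an array does not change when that array is divided by a constant. It can still move with background correction or quantile normalization. The log2 difference miR-192 minus miR-194 was 2.15, 2.48, 1.97 and 1.75 in UUO kidneys 1 to 4, and 2.13, 1.99, 2.13 and 1.95 in control kidneys 1 to 4. Control kidneys varied little, with an SD of 0.093, and the UUO kidneys had an SD of 0.31 and lay on both sides of them. UUO kidney 2 was highest, with miR-194 lower relative to miR-192 than on any other array, and UUO kidney 4 was lowest. The group difference was 0.040 with an exact 95% interval of -0.38 to 0.53 (exact permutation p = 0.800, two-sided, n = 4 each). Of the 3 pairs among the members this was the 1 pair with levels on both sides.

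The same kind of difference was taken between the mean of miR-192 and miR-194 and other miRNAs known from kidney epithelium. Against the miR-200 family, epithelial miRNAs that repress Zeb1 and Zeb2, the pair was lower by 0.97 on the log2 scale in UUO kidneys, with an exact interval of -1.62 to -0.27. The within-array values were 0.022 to 0.48 in UUO and 0.75 to 1.64 in control kidneys, without overlap. The exact permutation p was 0.0286, the smallest that 4 against 4 arrays allow, and 0.0381 adjusted over 4 such comparisons. The pair thus fell further than the mean of the miR-200 family on 8 arrays. The log2 changes in the family were -0.72 (miR-200a), -0.60 (miR-429), -0.59 (miR-200b), 0.15 (miR-200c) and 0.14 (miR-141). The number called lower was 2 of 5 tested members, miR-200a and miR-429, against 13.5% of all tested miRNAs. Without UUO kidney 2 it was 3 of 5, with miR-200b, against 30.2% of all. Without any 1 of the UUO arrays the exact p was 0.0571 at a difference of -1.05 to -0.89. With normexp background correction it was 0.0571 at -0.79, with overlap.

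Against miR-10a, miR-10b and miR-204, the pair was lower by 1.09 in UUO kidneys, with an exact interval of -1.82 to -0.22. The values were -0.28 to 0.65 in UUO and 0.87 to 1.55 in control kidneys, again without overlap (exact permutation p = 0.0286, adjusted 0.0381). None of these 3 miRNAs, which include Hox-cluster miRNAs and a miRNA known from renal epithelium, was called on 8 arrays. Of all tested miRNAs, 13.5% were called lower there and 1.35% higher. miR-211 was above background on no array. Without UUO kidney 2, miR-10b was called lower, at a log2 change of -0.55 (limma adjusted p = 0.0120), where 30.2% of all tested miRNAs were. Without any 1 of the control arrays the exact p was 0.0571 at a difference of -1.21 to -0.98. With normexp it was 0.0857 at -0.87, with overlap.

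Against the guide strands of the miR-30 family, abundant in kidney epithelium and podocytes, no difference passed the test. The pair minus the family was -0.49 to 0.27 in UUO and -0.30 to 0.60 in control kidneys, which overlapped. The group difference was -0.35 with an exact interval of -1.08 to 0.57 (exact permutation p = 0.229, n = 4 each). It was -0.21 without UUO kidney 2 (exact permutation p = 0.457). Without control kidney 2 it was -0.54, where the groups did not overlap and the exact permutation p was 0.0571. Of these miR-30 members 2 of 5, miR-30a and miR-30e, were called lower, against 13.5% of all tested miRNAs, and without UUO kidney 2 it was 5 of 5, against 30.2%. Against the median of all tested miRNAs, the pair was lower by 1.18, with an exact interval of -2.03 to -0.38 (exact permutation p = 0.0286, adjusted 0.0381), and with normexp by 0.56 (exact permutation p = 0.371).

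**Figure D3:**
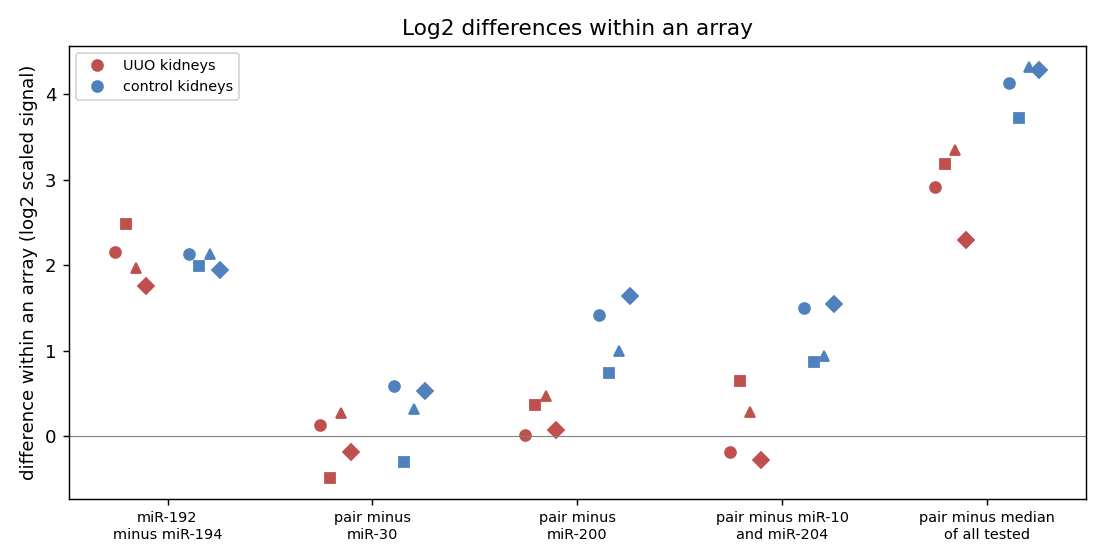
Log2 differences within an array in 4 UUO (left of each column) and 4 control kidneys, 1 symbol per kidney as in the plot of levels, for miR-192 minus miR-194 and for the mean of that pair minus the miR-30 family, the miR-200 family, the group of miR-10 and miR-204, and the median of all tested miRNAs. The gap between the groups is what a column shows, and it is 0.040 in the first column and -0.35, -0.97, -1.09 and -1.18 in the others.

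UUO kidney 2 correlated more closely with the control arrays than with its own group, and its values for the pair were as follows. Against the control mean, miR-192 was lower by 0.71 on the log2 scale and miR-194 by 1.14 in this kidney, and they ranked 18 and 3 of 222 from the bottom. In UUO kidneys 1, 3 and 4 the log2 difference of miR-192 from the control mean was -1.32, -1.16 and -1.89. For miR-194 it was -1.43, -1.09 and -1.59 there, so that kidney 2 lay within their range for miR-194 and above it for miR-192. Both were below all 4 control kidneys in UUO kidney 2, as were 50.5% of the tested miRNAs on that array. Without UUO kidney 2 the log2 changes were -1.46 for miR-192 and -1.37 for miR-194 (limma adjusted p = 0.00194 and 0.00130, n = 3 and 4), and 30.2% of miRNAs were called lower and 20.7% higher. That array stood out in these same data by its likeness to the controls, so counts without it are a description. List counts are given for this leave-out alone.

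**Figure D4:**
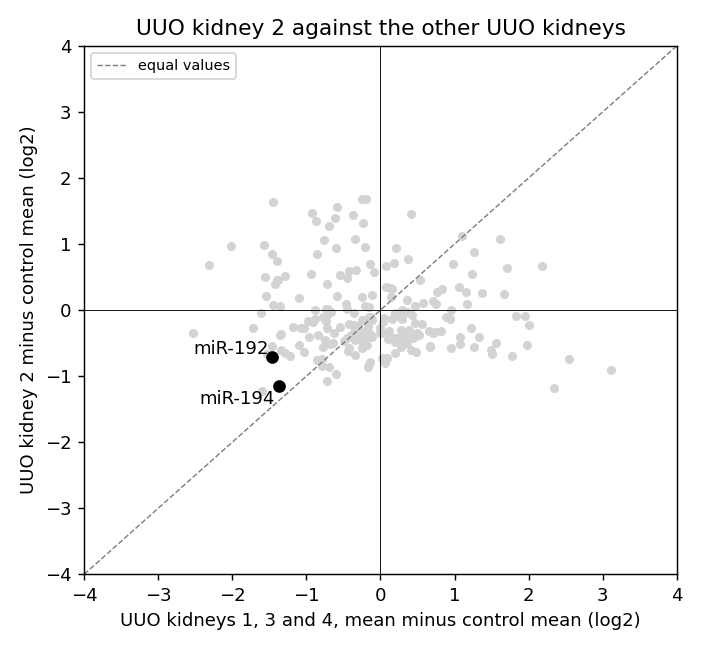
Difference from the control mean of the 222 tested miRNAs in UUO kidney 2 (vertical axis, log2) and, as a mean, in UUO kidneys 1, 3 and 4 (horizontal axis, log2), with a dashed line where both are equal. miR-194 lies near the line at -1.14 for kidney 2 and -1.37 for the others, and miR-192 lies above it at -0.71 and -1.46.

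Control kidney 2 was the lowest control for both members, with miR-192 at -0.38 and miR-194 at -0.32 from the control mean on the log2 scale. The summed scaled signal of the erythroid markers miR-451, miR-144 and miR-486, miRNAs of red blood cells, was 24.4 in UUO kidney 2 and 5.16 to 7.58 in the other UUO kidneys. It was 44.6 in control kidney 2 and 5.17 to 6.95 in the other control kidneys. Both kidneys numbered 2 were therefore high in erythroid miRNAs, and the part of this in the results was not tested. With both left out, the log2 changes were -1.58 for miR-192 and -1.47 for miR-194 (limma adjusted p = 0.00266 and 0.00250, n = 3 each). This setting was chosen after seeing the data. It removes the UUO kidney most like the controls and the lowest control, so these values are a description.

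Markers of immune cells and fibroblasts moved along with the group in 3 of 4 UUO kidneys. The summed scaled signal of the 7 leukocyte markers was 7.69, 1.88, 7.40 and 6.84 in UUO kidneys 1 to 4, and 2.02, 2.71, 1.99 and 2.07 in control kidneys 1 to 4. That of 4 fibroblast-associated miRNAs, led by miR-21, was 118, 27.8, 89.3 and 96.4 in UUO kidneys, and 35.8, 35.6, 62.6 and 34.5 in control kidneys. UUO kidney 2 was the low one in both lists. In that kidney miR-192 lay above the range of the other UUO kidneys and miR-194 within it. None of the 5 tested leukocyte or 4 tested fibroblast markers was called on 8 arrays, where only 1.35% of all tested miRNAs were called higher. All of these markers were called higher without UUO kidney 2, where 20.7% of all tested miRNAs were. The part of these cells in the lower relative level of miR-192 and miR-194 was not tested.

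miR-192 and miR-194 are also abundant in liver, and the hepatocyte miRNA miR-122 was not above background on any array. Of the 10 tested tubule epithelium markers 4 fell, namely miR-192, miR-194, miR-200a and miR-429, and none rose. Of all tested miRNAs 13.5% fell and 1.35% rose. The first 2 of the 4 markers are the members themselves. Without UUO kidney 2, 6 of the 10 fell, against 30.2% of all. The endothelial markers had 1 of 2 members called lower, the dim miR-126-5p, against 13.5% of all tested miRNAs. The brighter miR-126-3p was not called (limma adjusted p = 0.201). No tested member of the smooth muscle, striated muscle, erythroid or neuron lists was called, with 1, 1, 2 and 1 members tested. Such small lists can hold no call at the shares of all tested miRNAs, 13.5% lower and 1.35% higher. The pancreas marker miR-375 was not tested.

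**Figure D5:**
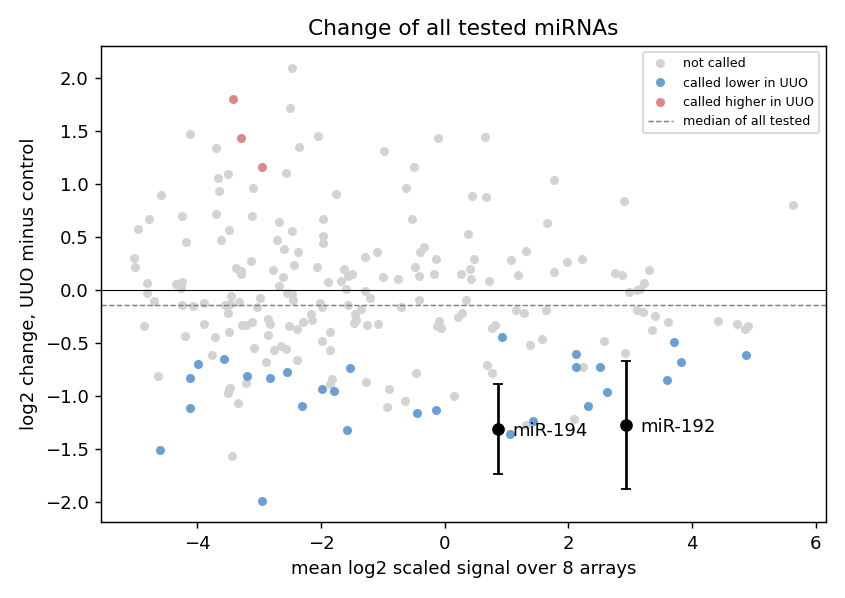
Log2 change (UUO minus control, n = 4 each) against the mean log2 scaled signal for the 222 tested miRNAs, with limma 95% intervals for miR-192 and miR-194 and a dashed line at the median change of -0.14. Both members lie at the low edge of the cloud, at -1.27 and -1.31.

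Several other miRNAs followed the profile of the pair. After each miRNA was centred on its control mean, the root mean square difference from the mean of miR-192 and miR-194 over 8 arrays was smallest for miR-185 (0.187), miR-29c (0.202), miR-365 (0.203), miR-455 (0.238) and miR-101a (0.239), in log2 units. The median over all other tested miRNAs was 0.98. miR-192 and miR-194 differed from each other by 0.199, which is not to be set against these distances from their mean. These 5 were chosen for this likeness, so their own changes of -1.32 to -1.09 are a description. In UUO kidney 2 the log2 difference from the control mean was -0.61 for miR-185, -0.69 for miR-29c, -0.55 for miR-365, -0.66 for miR-455 and -0.65 for miR-101a. The value of miR-192 there, -0.71, was close to these, and that of miR-194, -1.14, was lower than all 5.

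Other miRNAs described with TGF-beta in kidney cells changed in part. Of 13 such miRNAs outside the members, 9 were tested and 4 fell, namely miR-29a and miR-29c, which target collagen messenger RNAs, and miR-200a and miR-429, against 13.5% of all tested miRNAs. None rose, where 1.35% of all tested miRNAs did, and the list median was -0.59 against -0.14 for all tested miRNAs. miR-216a, miR-217, miR-377 and miR-382 were above background on no array. Without UUO kidney 2, 6 fell, against 30.2% of all. miR-21, a miRNA widely described in fibrosis, was called higher there, as were 20.7% of all tested miRNAs. On 8 arrays miR-21 was not called (limma adjusted p = 0.234).

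The 3 p53-responsive miRNAs of the miR-34 family, miR-34a, miR-34b-5p and miR-34c, were not called. Their log2 changes were -0.19, 0.72 and 0.93 (limma adjusted p = 0.531, 0.127 and 0.0788). Of all tested miRNAs, 13.5% were called lower and 1.35% higher. Without UUO kidney 2, miR-34b-5p and miR-34c were called higher, where 20.7% of all tested miRNAs were.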

How the data were processed

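Total RNA (100 ng per kidney) was labelled with Cy3 and hybridised to 1-colour Agilent arrays, per the labels' protocols. The deposited intensity values came from Agilent Feature Extraction (10.1.1 per the submitters' processing notes, 10.7.3.1 per the file headers), with background subtracted and no scaling between arrays. The other deposited values include marks of 0 or 1 per spot, per the file headers. They also include the median spot signals and the summed gene signals used in some of the alternatives. The authors' series matrix equals the processed signals.

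Spots without outlier marks were averaged into 1759 probes. Arrays were divided by their 75th percentile over 371 probes, probes of a miRNA were summed, a floor of 0.0213 was set and log2 taken. A probe was above background where over 50% of its spots carried the mark. The 222 miRNAs that were above background throughout either group entered the limma 3.58.1 fit in R 4.3.3. Array signal and 4 arrays per group limit the precision. The labels do not say that kidneys of a group came from separate mice, so p-values measure only the spread between these samples. Intervals of within-array differences hold every shift with an exact permutation p above 0.05.

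Members and lists were chosen with earlier results of these data known. The naming rule took the members, the 5 most alike miRNAs, and up to 4 miRNAs per list, called ones first. miR-199b had no probe of that name. Python 3.11.15 drew the figures.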

Additional observations from a re-analysis of the deposited data

Results flagged for a closer look

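Among 92 groups of 4 kidneys checked for 1 value far from the others, 9 stood out, where chance alone gives about 1 in 20, and none concerned miR-192 or miR-194. All values are log2 scaled signals. UUO kidney 2 was far from the other UUO kidneys for miR-223 (-0.30 against 1.91 to 1.98), miR-342-3p (-3.95 against -0.60 to -0.27), miR-30e (1.46 against -0.14 to 0.12) and miR-30d (1.61 against 0.91 to 1.02). UUO kidney 4 was low for miR-429 (1.58 against 1.87 to 1.93). Control kidney 3 was high for miR-21 (5.87 against 4.96 to 5.03) and miR-199a-3p (1.55 against 1.11 to 1.18). Control kidney 2 was high for miR-451 (5.46 against 2.35 to 2.78) and low for miR-342-3p (-3.77 against -2.52 to -2.36).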

How the results depend on the processing

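Changes below are log2, UUO minus control, and p-values are limma's adjusted ones or exact. The direction of the miR-192 and miR-194 changes was kept in all 26 alternatives. Their groups stayed apart in 24, the exceptions being the 2 unscaled settings, which gave the same values. Settings that only left out arrays, or that altered the fit or filter but no values, could not have changed either result. miR-192 passed in 12 and miR-194 in 15. Without scaling, and with the unscaled series matrix, the changes were -0.39 and -0.43 (limma adjusted p = 0.541 and 0.526) with 3 calls. Scaling over all mouse probes gave -1.29 and -1.33 (limma adjusted p = 0.0550 each) with 0 calls (56 at an unadjusted p under 0.05). The normexp correction was run on median spot signals, with an offset of 50 added to each corrected signal before scaling. It gave -1.15 and -1.19 (limma adjusted p = 0.118 and 0.0879) with 0 calls (54 unadjusted). The median change of all tested miRNAs under normexp was -0.62, and against it the 2 members were at -0.52 and -0.57. With normexp the pair minus the miR-200 family was -0.79 (exact p = 0.0571), minus the group of miR-10 and miR-204 -0.87 (exact p = 0.0857), and minus the median of all tested -0.56 (exact p = 0.371). miR-192 was also not called with quantile normalization (-0.98, 3 calls), the summed gene signal (-1.16, 3 calls) or no filter on dim miRNAs (-1.27, 17 calls). Scaling by the median gave 13 calls and array weights 138. The cause of these differences was not tested.

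With a replicate block the changes of miR-192 and miR-194 stayed -1.27 and -1.31 but were not called (limma adjusted p = 0.0801 and 0.0729), with 0 calls (67 unadjusted). The numbers are not known to pair the kidneys: correlations of same-numbered kidneys were -0.35 to 0.62, and only 1 of 4 UUO and 2 of 4 control arrays correlated best with their own number. Within slide row 1 the changes were -0.92 and -1.18 (limma adjusted p = 0.925 each) with 0 calls (1 unadjusted), and within slide row 2 -1.62 and -1.44 (limma adjusted p = 0.0363 each) with 69 calls, from 2 against 2 arrays. The difference miR-192 minus miR-194 turned to -0.18 within slide row 2, to -0.091 without UUO kidney 2 and to -0.11 without both kidneys numbered 2, a setting chosen after seeing the data. That setting gave 108 calls, -1.58 for miR-192, -1.47 for miR-194, and -1.39 for the pair minus the group of miR-10 and miR-204.

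Leaving out 1 array in turn gave -1.46 to -1.07 for miR-192, -1.42 to -1.22 for miR-194, -0.091 to 0.15 for their difference and 0 to 113 calls. The pair minus the miR-200 family ranged from -1.12 to -0.82, with an exact p of 0.0571 without any 1 UUO array, and minus the group of miR-10 and miR-204 from -1.27 to -0.96, with 0.0571 without any 1 control array. The pair minus the miR-30 family was -0.54 to -0.21 and minus the median of all tested -1.32 to -0.97. No alternative could be computed for miR-215, which had no level.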
